A study of Arabidopsis thaliana with 6 samples.

Results

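Transcripts of nuclear genes for antenna, photosystem and electron-carrier proteins of the thylakoid were followed in whole Arabidopsis thaliana seedlings aged 14 days. No protein was measured. Of the nuclear genes measured by a probe set paired with 1 gene, all whose symbol begins with LHCA, LHCB, PSA, PSB or RBCS followed by a digit or letter were taken, and CYTC6A was added by name. The rule asked for the 9 of highest mean signal, but the families gave 8 genes, so that none was left out for its signal and no gene lay just outside. The 9 genes, of 13356 measured by such probe sets, are the antenna genes LHCB4.1, LHCB4.2 and LHCB4.3, the photosystem I genes PSAE-1 and PSAN, the photosystem II genes PSBW, PSBY and PSB27, and CYTC6A. No LHCA or RBCS gene was among them, since the annotation used here paired none with a probe set of its own. That annotation left 8730 probe sets unnamed, so that the array may still measure such genes.

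The comparison was between 2 genotypes, the wild type Col-0 and pkl-1, which carries a mutant allele of PICKLE (PKL), the gene of a CHD3-type chromatin remodeller. Each genotype had 3 arrays, which the labels call biological replicates. Both were grown on half-strength Murashige and Skoog agar under continuous light with no further treatment. The signals are the authors' log2 values from GCRMA, a method that corrects background by probe sequence, brings the arrays to a common scale and gives 1 value per probe set. A difference is pkl-1 minus wild type on that scale, so that -1 is a halving of signal, and errors of differences are moderated standard errors (SE).

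Light absorbed by antenna proteins drives electrons from water through photosystem II, the cytochrome b6f complex and photosystem I. The photosystems are built from subunits of both origins: the chlorophyll-binding core proteins are encoded in the plastid, while the antenna and many small or peripheral subunits are encoded in the nucleus and imported. LHCB4 genes encode CP29, a minor antenna protein that links the outer antenna to the core of photosystem II.

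Array medians lay between 5.03 and 5.13 log2 units. The green-tissue marker with a usable probe set, RCA (Rubisco activase), lay between 13.1 and 13.3 on the 6 arrays, and the root marker PYK10 between 11.8 and 12.1. The root markers EXPA7 and EXPA18 were much dimmer, with means of 3.73 and 4.66. The seed markers OLEO3 and M10 were low, with means of 2.15 and 1.73. Of the marker lists 1 of 5 green-tissue, 3 of 11 root, 2 of 7 guard cell and 2 of 10 seed genes were measured. None of these 8 passed the test between genotypes with limma. SPCH and M10, 2 of the 8, had an unadjusted p below 0.05, as 14.9% of all probe sets did. The stomatal lineage gene SPCH was at -0.79 ± 0.23 (SE), and its part in the results below was not tested. FMA, the other guard cell marker measured, was at -0.38 ± 0.28. The probe set of PKL is not named here, so that the labels could not be checked against the mutated gene. The material is bulk tissue, in which fewer cells of a type and less RNA per cell cannot be told apart.

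Of the 8 antenna and photosystem genes 7 had a lower mean signal in pkl-1, by 0.10 to 0.50 log2 units, and LHCB4.3 had a higher one. Only LHCB4.2 passed the test (limma, Benjamini-Hochberg adjusted p under 0.05 over all 22746 probe sets), with a decrease. Over all probe sets 2.37% passed, 1.31% as decreases and 1.06% as increases. The median difference of the 8 genes was -0.19 log2 units, against 0.01 over all probe sets tested, of which 47.5% had a difference below 0. CYTC6A had a mean signal in pkl-1 2.37-fold that of the wild type.

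**Figure D1:**
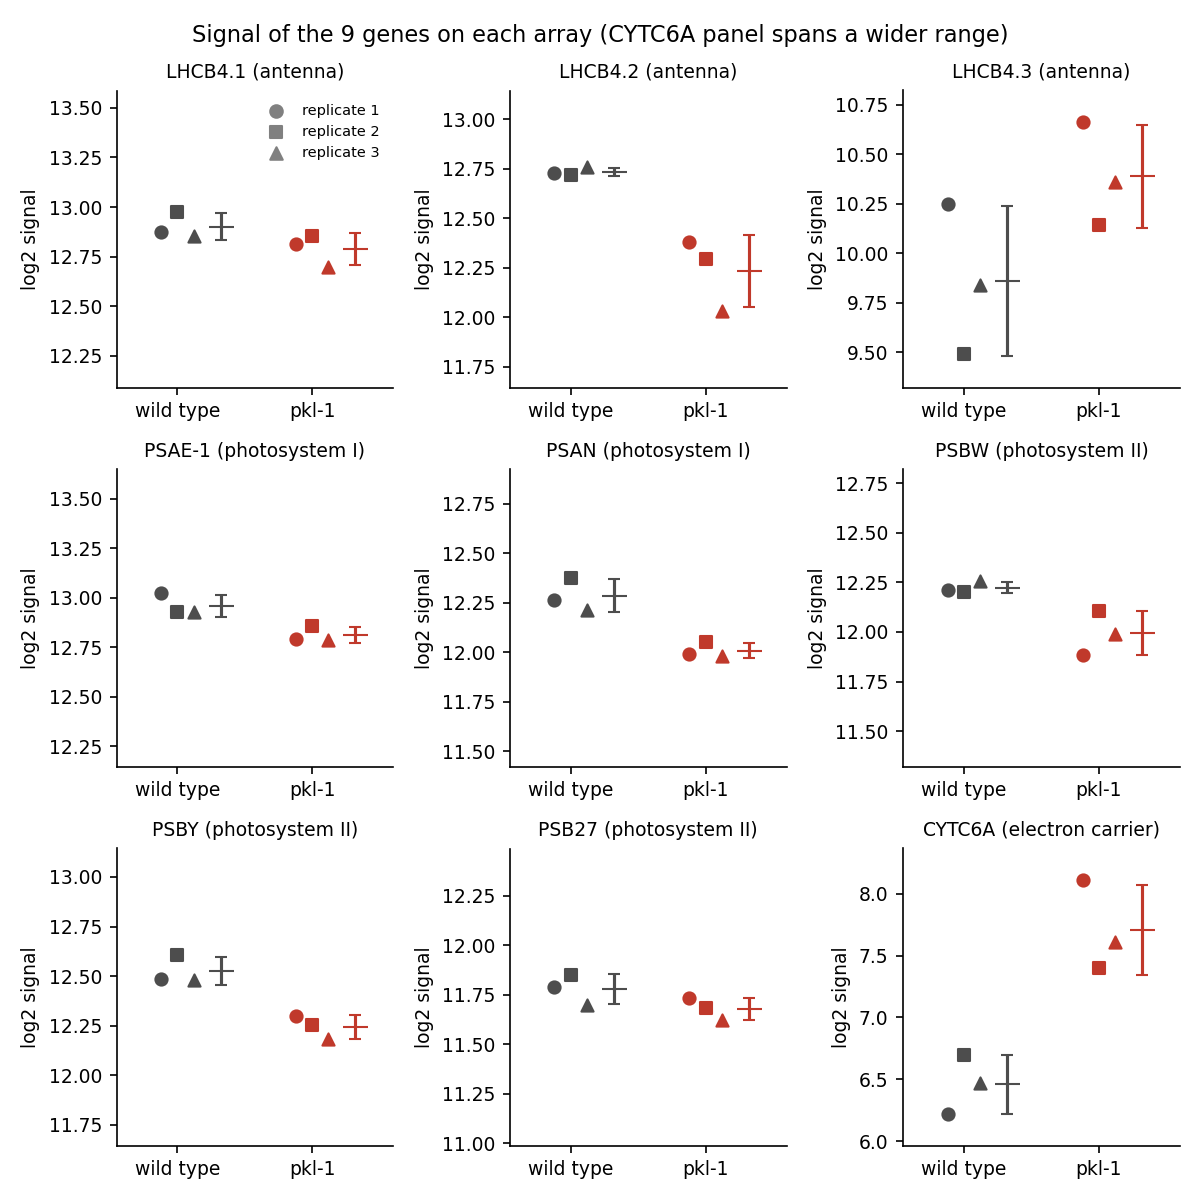
Log2 signal of each of the 9 genes on each array, with wild type in grey and pkl-1 in red, symbols for the replicate number, and bars for the mean and standard deviation of 3 arrays. All panels span 1.5 log2 units except that of CYTC6A, which spans more; the pkl-1 points of LHCB4.2 lie at 12.03 to 12.38, below all wild-type points, and those of CYTC6A at 7.40 to 8.11, above all wild-type points.

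The 3 LHCB4 genes had differences of either sign. LHCB4.2 (AT3G08940, chromosome 3) had signals of 12.73, 12.72 and 12.76 in wild-type replicates 1 to 3, and of 12.38, 12.29 and 12.03 in those of pkl-1. All pkl-1 arrays lay below all wild-type arrays, and the wild-type values were much closer together (SD 0.020) than the mutant ones (SD 0.18). LHCB4.2 fell by 0.50 ± 0.09 log2 units, which is 29.3% less signal (95% interval 18.3% to 38.8%; limma adjusted p = 0.0355). It belongs to the 8 family genes but is also named in the rule, with this result known. The call ended without pkl-1 replicate 2 (adjusted p = 0.122), without wild type replicate 1, 2 or 3 (0.0753, 0.122 and 0.0948) and without a mean-dependent prior for the variances (0.111).

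LHCB4.1 (AT5G01530, chromosome 5) had signals of 12.88, 12.98 and 12.85 in the wild type and 12.81, 12.85 and 12.70 in pkl-1. The groups overlapped, since pkl-1 replicate 2 lay level with wild-type replicate 3. Its difference was -0.11 ± 0.06 (limma adjusted p = 0.472), with a 95% interval from -0.26 to 0.03.

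LHCB4.3 (AT2G40100, chromosome 2), whose product is also called Lhcb8, had signals of 10.25, 9.49 and 9.84 in the wild type and 10.66, 10.14 and 10.36 in pkl-1. Here the highest wild-type array, replicate 1, lay above the lowest mutant one, replicate 2, so that the groups overlapped. In both genotypes replicate 1 was highest and replicate 2 lowest. The difference of 0.53 ± 0.20 did not pass (limma adjusted p = 0.267), and its 95% interval ran from 0.06 to 1.00 log2 units.

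Within an array, the signal of one LHCB4 gene relative to another takes out whatever scales the whole array. These 3 pairs were chosen after the values had been seen, and the shifts are given as a description with no test. LHCB4.3 minus LHCB4.2 was -2.48, -3.23 and -2.92 in the wild type and -1.72, -2.15 and -1.67 in pkl-1. No mutant array overlapped the wild type, and the shift between genotypes was 1.03 log2 units. LHCB4.2 minus LHCB4.1 shifted by -0.39, again without overlap. For LHCB4.3 minus LHCB4.1 the shift was 0.64 and the groups overlapped. The genes are paralogs, and the probe sequences were not used here, so that cross-hybridisation between them was not tested.

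**Figure D2:**
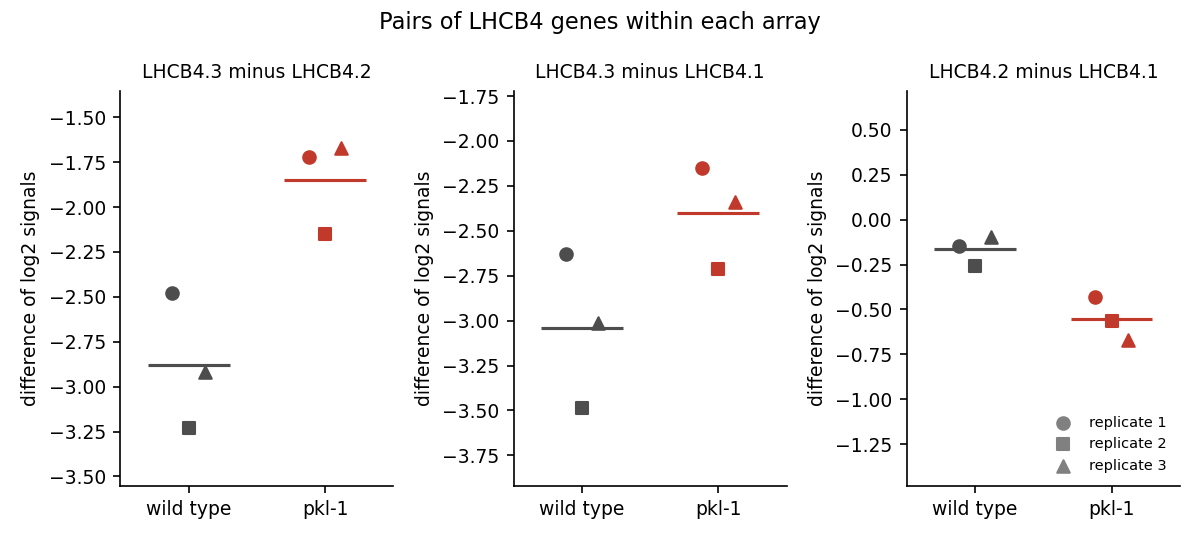
Difference of log2 signals between pairs of LHCB4 genes on the same array, with wild type in grey, pkl-1 in red, symbols for the replicate number and lines for the mean of 3 arrays. The genotypes do not overlap for the pairs LHCB4.3 and LHCB4.2 (shift 1.03) and LHCB4.2 and LHCB4.1 (shift -0.39).

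Both photosystem I genes had lower signals on every mutant array than on any wild-type array, without passing the test. PSAN (AT5G64040, chromosome 5) encodes a lumenal subunit on the side where plastocyanin docks. Its signals were 12.27, 12.38 and 12.22 in the wild type and 11.99, 12.05 and 11.98 in pkl-1. That is a difference of -0.28 ± 0.06, or 17.6% less signal (limma adjusted p = 0.0729). PSAE-1 (AT4G28750, chromosome 4) encodes a stromal subunit at the docking site of ferredoxin, and had signals of 13.02, 12.93 and 12.93 against 12.79, 12.86 and 12.79. The gap between the groups was narrow, and the difference was -0.15 ± 0.05 (limma adjusted p = 0.250), with a 95% interval from -0.28 to -0.02.

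Of the 3 photosystem II genes 2 were separated by genotype in the same direction. PSBY (AT1G67740, chromosome 1) encodes a precursor of small membrane subunits, with signals of 12.49, 12.61 and 12.48 in the wild type and 12.30, 12.25 and 12.18 in pkl-1. Its difference of -0.28 ± 0.06 was as large as that of PSAN (limma adjusted p = 0.0690). PSBW (AT2G30570, chromosome 2), a small subunit that stabilises the complexes of photosystem II with its antenna, had 12.21, 12.20 and 12.26 against 11.89, 12.11 and 11.99. The mutant arrays were lower and more scattered, and the difference was -0.23 ± 0.07 (limma adjusted p = 0.168). PSB27 (AT1G03600, chromosome 1), a lumenal factor of the assembly and repair of photosystem II rather than a lasting subunit, had 11.79, 11.85 and 11.70 against 11.73, 11.68 and 11.62. Here the groups overlapped, and the difference was -0.10 ± 0.07 (limma adjusted p = 0.565) with a 95% interval from -0.25 to 0.06.

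None of the 5 photosystem genes thus passed with limma, while 4 had an unadjusted p below 0.05 and 4 had groups that did not overlap. An unadjusted p below 0.05 was found in 14.9% of all probe sets and in 21.7% of the 1005 that are at least as bright as LHCB4.3, the dimmest of the 8 family genes. Together with LHCB4.2, 5 of the 8 family genes lay lower on all mutant arrays. Over all probe sets 10.4% did so. Among the 1005 bright probe sets 16.1% did so, the median difference was -0.01 and 51.9% of the differences were below 0. That group of bright probe sets was chosen after the data had been seen, and 4.08% of it passed the test. Its median signal was 10.9 log2 units, against 12.3 for the 8 family genes, so that it is dimmer than most of them. With 1 array left out the median difference of the 8 genes ran from -0.23 to -0.16.

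CYTC6A (AT5G45040, chromosome 5) encodes cytochrome c6A, a haem protein of the thylakoid lumen related to the c6 cytochromes that carry electrons in algae and cyanobacteria; its function in plants is not settled. It was chosen by name with its difference known, so its values are a description and no test is given. Its signals were 6.22, 6.70 and 6.47 in the wild type (6.46 ± 0.24, SD, n = 3) and 8.11, 7.40 and 7.61 in pkl-1 (7.70 ± 0.37, SD, n = 3). All mutant arrays lay above all wild-type arrays, as 10.6% of all probe sets did. Replicate 1 was the highest mutant array and the lowest wild-type array, so that same-numbered arrays differed by 1.89, 0.70 and 1.14 log2 units. The difference was 1.24 ± 0.21 and stayed between 1.04 and 1.395 with any 1 array left out. Its signal, about 7 log2 units, was the dimmest of the 9 but well above the lower end of the array's range of 0.60 to 13.7.

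**Figure D3:**
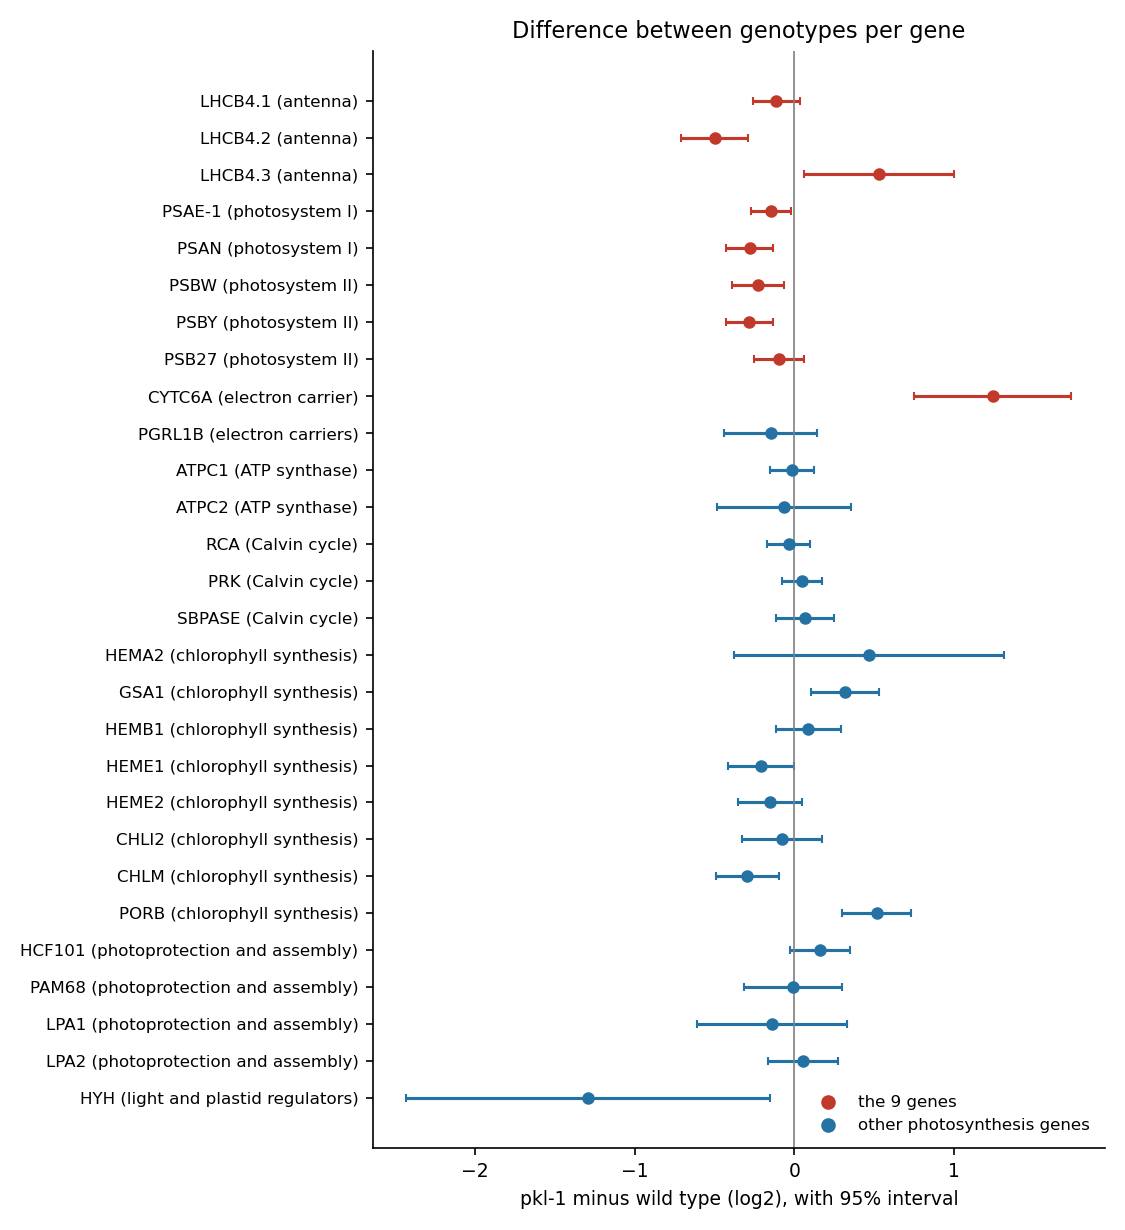
Difference between pkl-1 and wild type with its 95% interval for the 9 genes (red) and 19 other listed photosynthesis genes (blue). The group of each gene is in brackets, and the lists were chosen with earlier results of these data known. LHCB4.2 at -0.50 and PORB at 0.52 passed the test; CYTC6A at 1.24 is drawn as a description.

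The other steps of photosynthesis were covered by 19 measured genes of 6 lists, which had a median difference of -0.02 log2 units with 11 below 0. One of the 19, PORB, passed the test. An unadjusted p below 0.05 was found for 5 of the 19, against 14.9% of all probe sets. The groups did not overlap for 6, with 3 lower and 3 higher in pkl-1, against 21.0% of all probe sets. Few of the listed genes had a usable probe set. The Calvin cycle genes RCA, PRK (phosphoribulokinase) and SBPASE (sedoheptulose bisphosphatase) had mean signals of 13.2, 12.4 and 12.1. Their differences were -0.03 ± 0.06, 0.05 ± 0.06 and 0.06 ± 0.08, and none passed with limma (0 with an unadjusted p below 0.05). Their 95% intervals ran from -0.17 at the lowest to 0.24 at the highest, so that a change of the size seen in LHCB4.2 is outside them.

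The gamma subunit of the plastid ATP synthase is encoded by ATPC1 and ATPC2, which were at -0.02 ± 0.06 and -0.06 ± 0.18. PGRL1B, of cyclic electron flow around photosystem I, was the only other electron-transfer gene measured, at -0.15 ± 0.13. The assembly factors HCF101 of photosystem I and PAM68, LPA1 and LPA2 of photosystem II were at 0.16 ± 0.08, -0.01 ± 0.13, -0.14 ± 0.20 and 0.06 ± 0.10. None of these 7 passed with limma, nor did any have an unadjusted p below 0.05. Only HCF101 had groups that did not overlap, with all mutant arrays higher, as 10.6% of all probe sets did.

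Chlorophyll synthesis was the list with the most measured genes, 8 of 23. PORB, the light-dependent protochlorophyllide oxidoreductase of green tissue, had signals of 11.23, 11.57 and 11.39 in the wild type and 11.85, 11.98 and 11.91 in pkl-1. All mutant arrays were higher, and PORB rose by 0.52 ± 0.09 log2 units, 1.43-fold (limma adjusted p = 0.0355). Only the fit without wild type replicate 2 kept the call when 1 array was left out (adjusted p 0.0452, and 0.0605 to 0.156 without another), and it was also lost without a mean-dependent prior (0.0998). The other 7 went both ways, 4 of them below 0, and did not pass with limma. Of the 7, 3 had an unadjusted p below 0.05, as 14.9% of all probe sets did. The groups did not overlap for 4, with 3 lower and 1 higher in pkl-1, as for 21.0% of all probe sets. The 3 with an unadjusted p below 0.05 were CHLM, GSA1 and HEME1. CHLM, which methylates Mg-protoporphyrin, was at -0.30 ± 0.08. GSA1, which makes aminolevulinate, was at 0.32 ± 0.09, and HEME1 at -0.21 ± 0.09. These were picked out after their values had been seen.

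Of the listed regulators only HYH, the bZIP homolog of the light-signalling factor HY5, had a usable probe set. Its signals were 7.21, 6.38 and 6.07 in the wild type and 6.08, 5.53 and 4.18 in pkl-1. The groups just overlapped, and replicate 3 was the lowest array in both genotypes. The difference of -1.29 ± 0.49 did not pass (limma adjusted p = 0.267).

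Plastid-encoded genes of the same complexes were measured as well. For 21 of them, 20 named psa or psb and rbcL, the median difference was 0.04 log2 units, with 6 below 0 and a range from -0.33 to 0.14. None passed with limma, 1 had an unadjusted p below 0.05 (psbE at -0.20 ± 0.07), 2 lay lower on all mutant arrays (psbE and psbD) and 1 higher (psbC), against 10.4% and 10.6% of all probe sets. These shares are near or below the background. The genes of the photosystem I core proteins psaA and psaB were at 0.12 ± 0.17 and -0.01 ± 0.05. Those of the photosystem II core proteins psbA, psbB, psbC and psbD were at -0.10 ± 0.07, 0.11 ± 0.08, 0.08 ± 0.06 and -0.06 ± 0.07. Wild type replicate 2 was low for the plastid genes, at -0.17 log2 units on average from each gene's mean over the 6 arrays, while the other arrays lay between 0.01 and 0.07. Without that array the plastid median was -0.03 and 14 of the 21 differences were below 0. The median of the 8 nuclear genes without it was -0.20. No test of the difference between the nuclear and plastid genes was made.

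**Figure D4:**
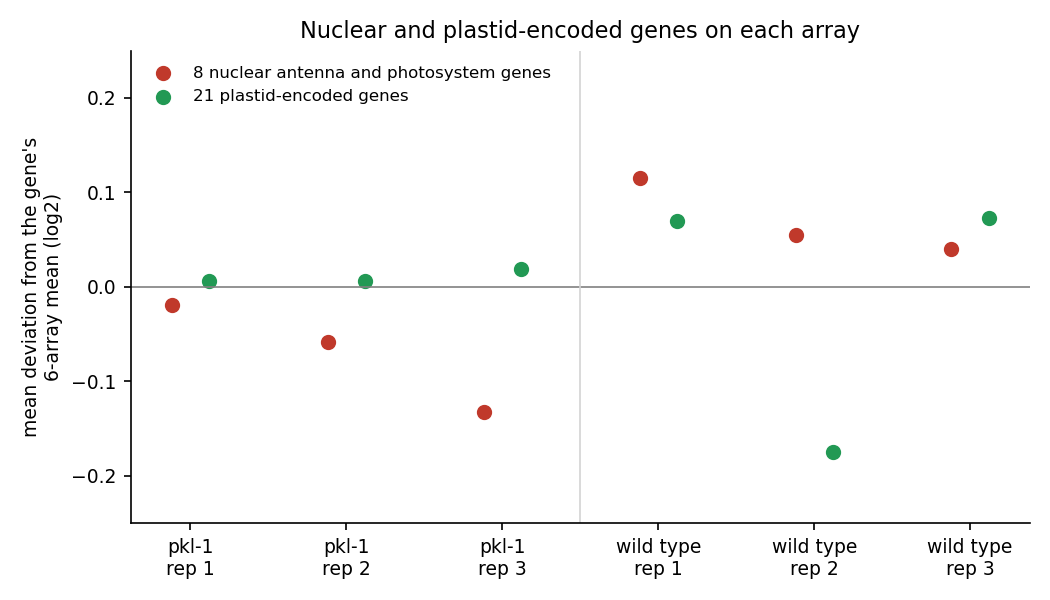
Mean deviation of each array from the genes' means over the 6 arrays, in log2 units, for the 8 nuclear antenna and photosystem genes (red) and 21 plastid-encoded genes (green). The nuclear genes lie at -0.13 to -0.02 on the pkl-1 arrays and at 0.04 to 0.12 on the wild-type arrays, and the plastid genes at -0.17 on wild type replicate 2.

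**Figure D5:**
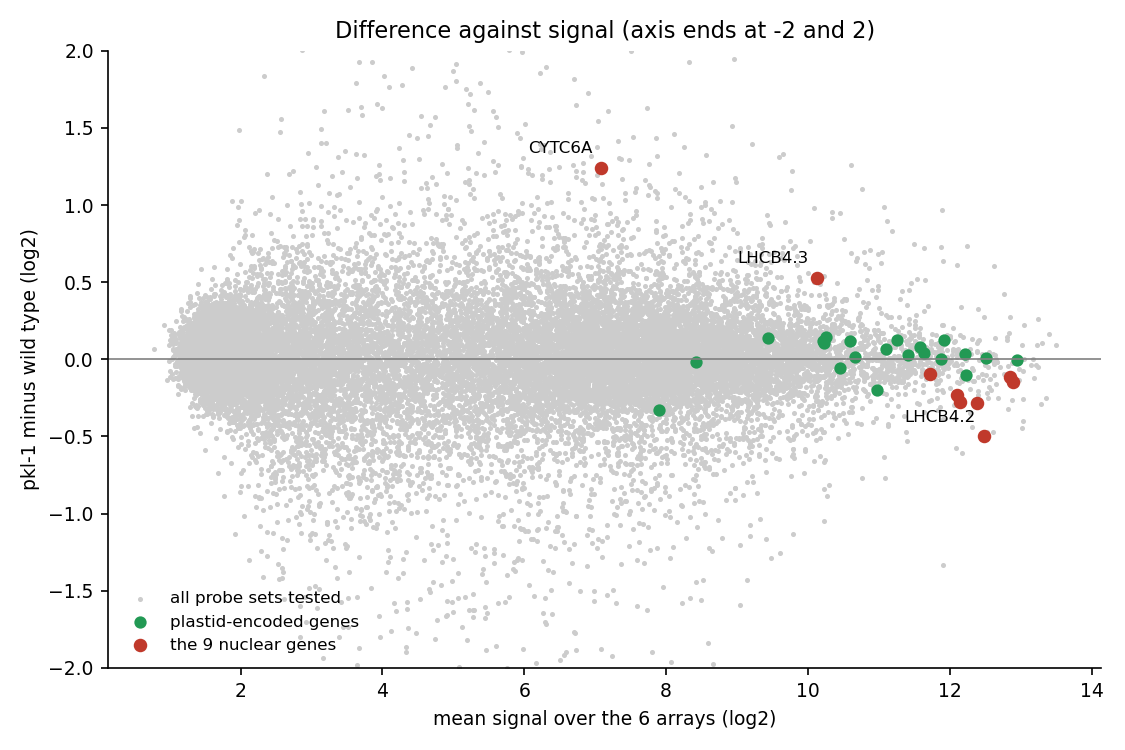
Difference between pkl-1 and wild type against mean signal over the 6 arrays for all probe sets (grey), the plastid-encoded genes (green) and the 9 nuclear genes (red). The axis ends at -2 and 2, beyond which 76 probe sets lie; 7 of the red points lie below 0 at the bright end, with LHCB4.3 at 0.53 and CYTC6A at 1.24 above it.

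The 9 genes lie apart from one another on all 5 chromosomes, and their direct neighbours were examined in the order of the TAIR10.1 gene table. Of the 36 loci that are the nearest 2 on either side, 14 had a usable probe set. None passed with limma, and 2 had an unadjusted p below 0.05, a share near the 14.9% of all probe sets. One of these, AT3G08920, 2 loci before LHCB4.2, was at -0.51 ± 0.17 (limma adjusted p = 0.211) with overlapping groups, while AT3G08930 between them was at 0.08 ± 0.11. The other, AT1G67760, 2 loci after PSBY, was dim, with signals of 2.68 in pkl-1 and 3.15 in the wild type, and the only neighbour whose groups did not overlap, as 21.0% of all probe sets did not. The neighbour of CYTC6A that was measured, AT5G45060, was at -0.21 ± 0.25. These neighbours were picked out by position and named after their values had been seen.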

How the data were processed

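The deposited table holds log2 signals of 22810 probe sets on 6 arrays, made by the authors with GCRMA per the submitters' processing notes, whose version and annotation were not given in the sources used here. The log2 scale was read from the values. The 64 control probe sets were left out, and 22746 were tested without a filter. By the platform's annotation 13513 probe sets had 1 gene, 503 had several and 8730 had no name here; symbols and loci came from the TAIR10.1 gene table. Genes of the listed pathways were counted where such a probe set measured them.

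pkl-1 was compared with wild type by limma 3.58.1 in R 4.3.3 (eBayes with a mean-dependent prior, 2-sided), with p-values adjusted over the 22746 probe sets by Benjamini-Hochberg and called at 0.05. The fit was run on simulated data with independent noise and planted changes larger than those of the family genes. That run therefore does not show how well differences as small as theirs are found. Arrays have no read depth; their number, 3 a genotype, limits the precision. Each p-value sets a difference against the spread between these samples, as moderated by the mean-dependent prior. Members, lists and rules were chosen with earlier results of these data known. The names printed are all members, all measured genes of lists of 4 or fewer, and the changed genes of longer lists, except where the text says otherwise. Alternatives were other variance moderation, a signal filter, quantile normalization, median centring, array weights, a block for the replicate number, leaving out each array, and a threshold of 0.01. Figures were drawn with matplotlib 3.10.9.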

Additional observations from a re-analysis of the deposited data

How the results depend on the processing

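The 7 lower signals among the 8 family genes, the higher signal of LHCB4.3 and that of CYTC6A kept their sign in the 9 of 14 alternatives that change the estimates (quantile normalization, median centring, array weights and each array left out); the other 5 leave them as they are. The number of family genes that passed, 1 in the main comparison, was 0 without a mean-dependent prior and at a threshold of 0.01, 4 with the replicate number as a block, and 0 to 1 with 1 array left out. The number of all probe sets that passed, 540, was 111 at a threshold of 0.01, which is stricter by construction, 1518 with the block, and 123 to 303 with 1 array left out, where fewer arrays remain. The median of the 8 genes was -0.15 without LHCB4.2, an alternative chosen after seeing the data, and -0.16 after quantile normalization. With the replicate number as a block PSBY (limma adjusted p = 0.0204), PSAN (0.0178), LHCB4.3 (0.00668), HYH (0.0137), GSA1 (0.0448) and CHLM (0.0338) passed as well; the cause was not tested. The labels give equal numbers no shared batch, and for that reason the main comparison did not pair the arrays. Same-numbered arrays deviated from their genotype means with correlations, over all probe sets, of 0.49, -0.02 and 0.58 for replicates 1, 2 and 3. The arrays of replicates 1 and 3 thus deviated alike in both genotypes, which the main comparison does not take into account. The deviations within a genotype sum to 0, so that these correlations depend on one another. Correlations between arrays of unlike number were not examined. Which of the fits is the better one was not tested.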
